A study of Mus musculus with 16 samples.

Results

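The histone genes of mouse islets were followed over 4 culture conditions. Genes were taken by symbol (Hist1h, Hist2h, Hist3h, Hist4h, H1f, H2af and H3f3), which gave 91 of the 52636 genes in the table, and 36 of these had at least 10 counts in at least 4 of the 16 libraries. The 36 were 21 replication-dependent core histone genes, 8 replacement core histone genes, 5 linker histone genes, 1 antisense gene (*H3f3aos*) and 1 pseudogene (*Hist3h2bb-ps*). Of the other 55 genes, 12 had no count in any library, and the highest count of any of them in a library was 8, so no gene lay just under the minimum. *Hist3h2bb-ps* reached 10 counts in exactly 4 libraries and was the member nearest to the minimum.

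Islets, the endocrine cell clusters of the pancreas, came from 12-week-old male C57BL/6JRj mice (C57BL/6NRj in the study's methods) and were cultured for 10 days. They were left non-exposed (control) or exposed to 50 pg/mL IL-1β, a pro-inflammatory cytokine, to 0.2 mM butyrate, a short-chain fatty acid that inhibits histone deacetylases, or to both. There were 4 independent experiments per condition, each library from 500 islets pooled from several mice, so that a replicate is a pool and not a mouse. A library held 18635943 to 25955943 counted reads, of which 0.0859 to 0.109% fell on the 36 histone genes. The libraries matched their labelled tissue, with *Ins2* at a mean of 88046 to 161875 CPM (counts scaled to library size) by condition. The islets also held other cells, and in such bulk RNA fewer cells of a type and less RNA per cell cannot be told apart.

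DNA is wound around octamers of the core histones H2A, H2B, H3 and H4, and the linker histone H1 binds where DNA enters and leaves them. Replication-dependent histone genes sit in clusters, have no introns as a rule and are transcribed in S phase. Their mRNAs end, without a poly(A) tail, just after a conserved stem-loop that the stem-loop binding protein *Slbp* recognizes. Replacement histones such as H3.3 (*H3f3a*, *H3f3b*), H2A.Z (*H2afz*, *H2afv*), macroH2A (*H2afy*, *H2afy2*) and H2A.X (*H2afx*), and the linker histone H1.0 (*H1f0*), are made outside S phase as well, and most of their mRNAs are polyadenylated. Beta cells of adult islets divide seldom.

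The stem-loop, the mark of replication-dependent histone mRNA, was read from the GENCODE M21 transcripts (build GRCm38). It was searched on the transcript strand as GG, 2 bases, CTTTT, 1 base, AG, 2 bases, CC. It was found in 18 of the 21 replication-dependent members, in 3 of the 5 linker members (*Hist1h1c*, *Hist1h1d* and *Hist1h1e*), in 1 of the 8 replacement members (*H2afx*), and in 44 of 55359 genes outside the family (0.0795%). The annotated transcripts of *Hist1h2bc*, *Hist2h2be* and *Hist1h4k* did not hold it. It is shown for members on which the results turn, as DNA, 5′ to 3′, with the 16 bases of the stem-loop in capitals and 5 bases on either side; the coordinates are those of the capitals.
Hist1h1c (chr13:23739512-23739527, + strand): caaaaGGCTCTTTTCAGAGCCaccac
Hist3h2a (chr11:58955172-58955187, + strand): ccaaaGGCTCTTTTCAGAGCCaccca
Hist3h2ba (chr11:58949349-58949364, + strand): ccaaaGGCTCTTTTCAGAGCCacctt
Hist1h2ae (chr13:23570668-23570683, - strand): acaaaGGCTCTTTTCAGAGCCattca
Hist1h2bg (chr13:23571843-23571858, + strand): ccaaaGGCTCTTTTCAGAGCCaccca
Hist1h3d (chr13:23576244-23576259, + strand): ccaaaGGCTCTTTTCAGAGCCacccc
Hist1h4i (chr13:22040966-22040981, - strand): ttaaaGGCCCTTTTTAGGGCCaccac
Hist1h4j (chr13:21735437-21735452, + strand): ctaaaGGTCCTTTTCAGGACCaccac
Hist2h4 (chr3:96262939-96262954, - strand): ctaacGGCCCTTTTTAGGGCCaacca
H2afx (chr9:44335240-44335255, + strand): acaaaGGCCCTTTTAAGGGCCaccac
The linker, H2A, H2B and H3 genes shown shared the same 16 bases, while the H4 genes and *H2afx* had another stem. The stem of *Hist1h4j* differed from that of *Hist1h4i* and *Hist2h4*. *H1f0* and *H1fx*, the linker genes outside the clusters, had no match in their transcripts.

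Most counted replication-dependent genes with a stem-loop had long annotated sequence after it. Among members with the stem-loop, the annotated transcript ran on for a median of 419.5 bases (42 to 2445), and 16 of 18 had at least 100 bases. Among the 22 replication-dependent genes with the stem-loop that lay under the count minimum, the median was 32 bases (3 to 1167), and 2 of 22 had at least 100 bases. The members also had more sequence of their own. Of all 50-base stretches in their transcripts, a median of 75.2% occurred in no other gene, against 22.6% for the 40 replication-dependent genes under the minimum. Of the 12 genes of the family with no count, 8 had under 10% of such stretches and 5 had none. Whether reads that map to several genes were counted is not given in the sources used here, and the part of mapping, annotation and RNA selection in these levels was not tested.

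**Figure D1:**
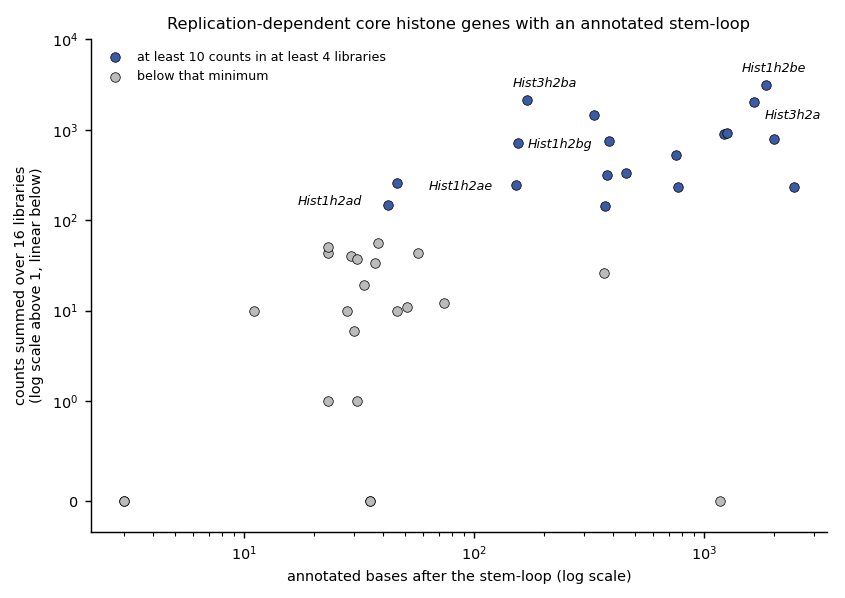
Counts of the 40 replication-dependent core histone genes with an annotated stem-loop, summed over 16 libraries (y axis, logarithmic above 1), against the annotated bases after the stem-loop (x axis, logarithmic). The 18 genes over the count minimum (blue) sit mostly at 100 bases or more, and the 22 below it (grey) mostly under 100 bases.

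Levels between genes were compared per kilobase of annotated exon. This value depends on the annotated length, which for *Hist4h4* includes 2445 bases after the stem-loop. In control islets the linker genes *H1f0* and *Hist1h1c* stood highest at 86.3 and 70.8 CPM per kilobase, followed by the replacement genes *H2afz* (56.0) and *H3f3b* (48.3) and by *Hist1h2bc* (33.4). The other 20 replication-dependent members lay between 0.254 (*Hist4h4*) and 7.51 (*Hist3h2ba*) CPM per kilobase. By type, H4 had the most members over the minimum (8 of 13 genes), against 6 of 18 for H2B, 4 of 18 for H2A and 3 of 12 for H3. A few genes made up each class. *Hist1h2bc* held 42.8% of the summed CPM of the replication-dependent members, *H1f0* and *Hist1h1c* held 52.1% and 39.8% of that of the linker members, and *H3f3b*, *H2afy* and *H2afz* held 29.2%, 26.2% and 18.8% of that of the replacement members.

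Summed over their members, the 3 classes differed over the conditions. The linker sum was 299 to 340.3 CPM in control libraries, 351 to 404 with butyrate, 381 to 434 with IL-1β and 439 to 498 with both, so that no treated library overlapped the control libraries. *H1f0* had a mean of 177 CPM in controls, 232 with butyrate and 171 with IL-1β, and *Hist1h1c* 110, 121 and 188 CPM. The rise of the sum was thus mainly that of *H1f0* with butyrate and of *Hist1h1c* with IL-1β, not of the class as a whole. The replacement sum was 488 to 521 CPM in controls, 432 to 490.0 with butyrate, 474 to 543 with IL-1β and 452 to 471 with both, and the libraries with both agents lay under all controls. Within it, the 6 replacement H2A genes summed to a mean of 337 ± 7.99 CPM (SD, n = 4) in controls, 288 ± 15.9 with butyrate and 293 ± 5.53 with both, neither overlapping the controls, while the 2 replacement H3 genes lay between 153 and 186 CPM in all 16 libraries. The replication-dependent sum overlapped between all conditions, at 93.9 to 102 CPM in controls, 87.7 to 102 with butyrate, 97.7 to 118 with IL-1β and 93.0 to 100.1 with both. *Hist1h2bc* and *Hist2h2be*, whose annotated transcripts lack the stem-loop, held 42.8% and 12.4% of this sum. It is thus mostly not a sum of genes with the stem-loop. Without *Hist1h2bc*, the other 20 members summed to 57.5 to 61.5 CPM in controls and 50.5 to 55.6 with IL-1β, without overlap, while 56.9 to 65.5 with butyrate and 49.8 to 57.8 with both overlapped the controls.

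By type, the replication-dependent sums differed. The H3 members summed to 2.61 to 4.39 CPM in controls and 1.59 to 2.27 with both agents, and the H4 members to 13.9 to 16.3 and 10.9 to 12.7 CPM, without overlap in either case. With butyrate alone the H4 sum was 11.7 to 13.7 CPM, also under all controls, while the H3 sum of 2.45 to 2.86 CPM overlapped them. The H2A members, led by *Hist3h2a*, summed to 8.84 to 9.30 CPM in controls and 9.20 to 12.0 with butyrate, with 1 butyrate library inside the control range. The H2B members, led by *Hist1h2bc*, summed to 66.5 to 75.2 CPM in controls and 75.3 to 91.1 with IL-1β, and 75.2 and 75.3 were the nearest libraries of both. The 40 replication-dependent genes under the minimum had only 28 to 66 counts per library when summed. Scaled, they summed to 2.377 to 2.74 CPM in controls and 1.42 to 1.56 with butyrate, under all controls. With IL-1β they summed to 1.95 to 2.382 CPM and with both agents to 1.26 to 2.41 CPM, each overlapping the controls. These sums carry no test, since the list was chosen with results of these data known.

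**Figure D2:**
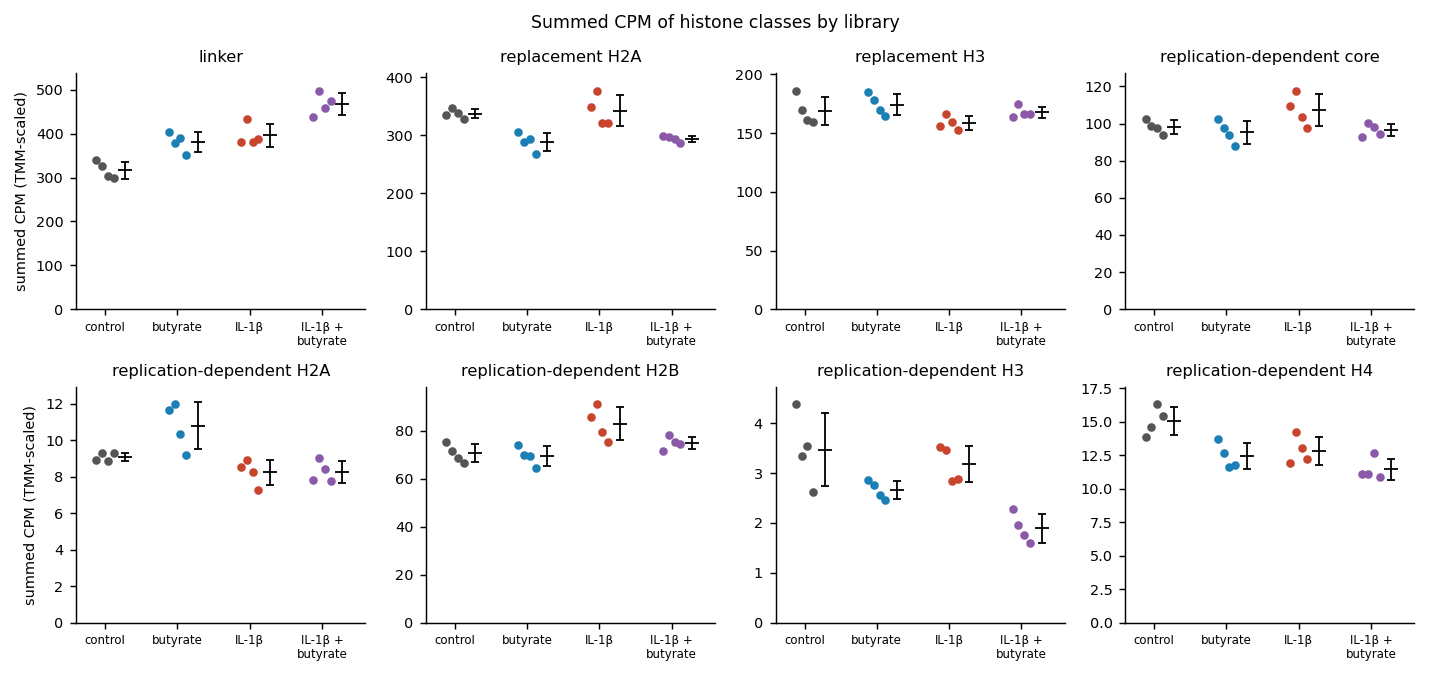
Summed CPM (y axis, linear from 0) of histone classes in each of the 16 libraries (points) by condition (x axis), with the mean and SD of 4 libraries (bars). Linker sums in treated libraries lie over those of controls, replacement H2A sums are lower in both conditions with butyrate, and the sums of all replication-dependent core members overlap.

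Gene by gene, 35 of the 36 members passed the filter on low counts and were tested with edgeR's quasi-likelihood test among 18587 genes at a Benjamini-Hochberg adjusted p under 0.01. Butyrate raised 3 and lowered 6 of them against control, where 8.53% of all genes tested were called higher and 11.4% lower. By class, 2 of 21 replication-dependent members were higher and 2 lower, 3 of 8 replacement members were lower, and 1 of 5 linker members was higher and 1 lower. IL-1β raised 3 and lowered 3 against control, where 11.2% of all genes were called higher and 6.59% lower. These were 1 replication-dependent member higher and 2 lower, 1 replacement member lower and 2 linker members higher.

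Butyrate added to IL-1β raised 2 and lowered 9 members against IL-1β alone, with 8.41% of all genes called higher and 11.1% lower. By class, 1 replication-dependent member was higher and 4 lower, 4 replacement members were lower, and 1 linker member was higher and 1 lower. Both agents together raised 4 and lowered 9 against control, with 15.8% of all genes called higher and 14.8% lower. There, 1 of 21 replication-dependent members was higher and 6 lower (28.6%), 3 of 8 replacement members were lower (37.5%), and 3 of 5 linker members were higher (60.0%).

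The medians of the log2 fold changes differed between the classes. Against control, the replication-dependent members had a median of -0.18 with butyrate, -0.08 with IL-1β and -0.28 with both, and against IL-1β alone -0.24 on adding butyrate. In the same order the replacement members had -0.26, 0.02, -0.13 and -0.18, and the linker members 0.13, 0.31, 0.39 and 0.10. The medians over all genes tested were 0.0065, -0.025, -0.0027 and 0.012. The linker medians were the only class medians over 0 in all 4 comparisons. Comparisons with a shared control share its libraries, so these values are not independent of each other.

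**Figure D3:**
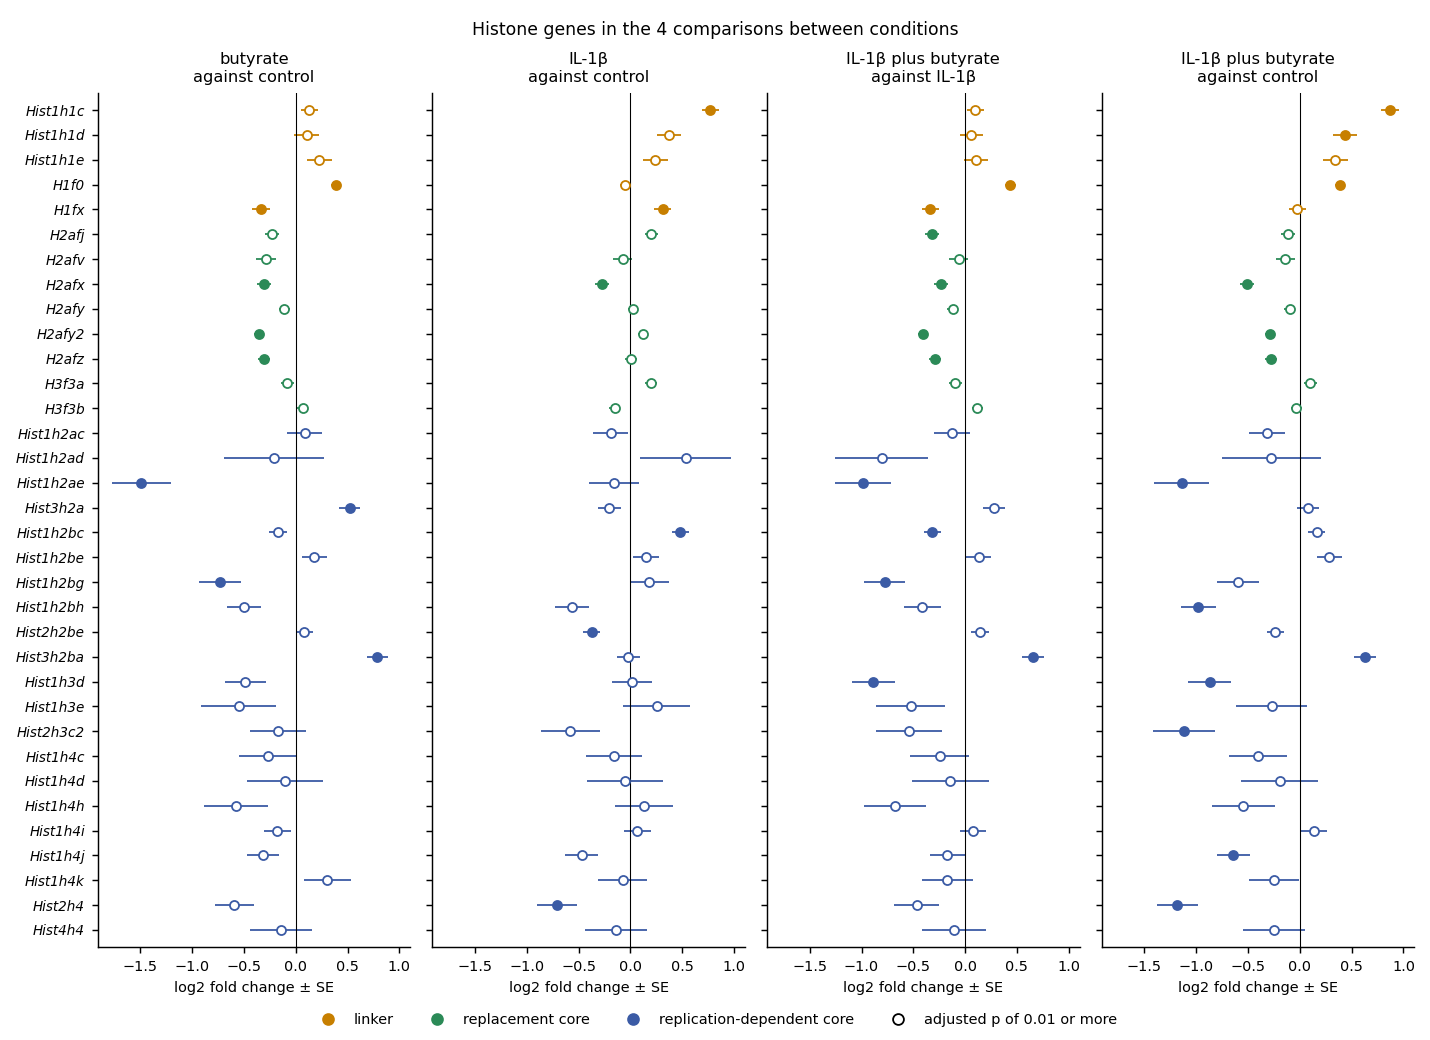
Log2 fold change ± SE (x axes) of the 34 protein-coding members that were tested (y axis, grouped by class) in the 4 comparisons between conditions; filled points have an adjusted p under 0.01. Linker genes lie mostly right of 0, replacement H2A genes left of it in the comparisons with butyrate, and replication-dependent genes on both sides.

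Among the linker histones, *H1f0* (chr15:79028450-79030504, + strand), which encodes H1.0, the linker histone that accumulates in non-dividing cells, rose with butyrate. Its level was 178, 186, 174 and 172 CPM in control libraries and 243, 229.5, 240.1 and 216 CPM with butyrate. With IL-1β it was 171, 186, 165 and 164 CPM, and with both agents 230.2, 254, 224 and 219 CPM. All 8 libraries with butyrate thus lay over all 8 without it, whether IL-1β was present or not. The log2 fold change was 0.39 ± 0.05, adjusted p = 2.2e-06 for butyrate against control and 0.44 ± 0.05, adjusted p = 3.8e-07 for both agents against IL-1β. For IL-1β alone it was -0.05 ± 0.05, adjusted p = 0.55.

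*Hist1h1c* (chr13:23738808-23740367, + strand), the H1.2 gene of the large cluster on chromosome 13, was raised by the cytokine instead. It measured 130.4, 110.4, 102 and 98.8 CPM in controls and 176, 209, 182 and 187 CPM with IL-1β. With both agents it measured 180.1, 210.1, 199.8 and 216 CPM, and with butyrate alone 132, 123, 122 and 107 CPM. All 8 libraries with IL-1β exceeded all 8 without it. The rise was 0.77 ± 0.09, adjusted p = 1.5e-06 for IL-1β and 0.87 ± 0.08, adjusted p = 1.8e-07 for both agents against control, the largest among all members in each case, while butyrate gave 0.13 ± 0.09, adjusted p = 0.29.

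The other clustered linker genes lay lower per length in controls, *Hist1h1d* at 1.10 and *Hist1h1e* at 3.44 CPM per kilobase. *Hist1h1d* has 7425 annotated exon bases, and its mean of 8.15 CPM stood above the 6.63 CPM of *Hist1h1e*. *Hist1h1d* (H1.3) ranged from 6.89 to 10.1 CPM in controls and from 8.89 to 12.0 CPM with both agents, ranges that overlapped, and was called higher (0.43 ± 0.11, adjusted p = 0.0032). *Hist1h1e* (H1.4) ranged from 5.50 to 8.77 CPM in controls and from 6.94 to 9.49 CPM with both (0.34 ± 0.12, adjusted p = 0.021). It was not called in any comparison in the fit without a replicate block. It shares 496 exon bases with *Hist1h2be* on the same strand, so reads there cannot be assigned to one of them. The call of *Hist1h1d* was lost on leaving out IL-1β plus butyrate replicates 2, 3 or 4 or control replicates 3 or 4 (adjusted p from 0.0101 to 0.0183).

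*H1fx* (H1.10, on chromosome 6) went opposite ways with each agent. It measured 13.3, 15.3, 13.4 and 15.3 CPM in controls, 11.3, 11.5, 10.8 and 11.7 CPM with butyrate and 16.5, 19.0, 16.6 and 18.7 CPM with IL-1β. With both agents it measured 12.7, 12.4, 14.7 and 16.7 CPM. The butyrate libraries lay under and the IL-1β libraries over all controls, and the libraries with both spread beyond the control range on both sides. It fell with butyrate (-0.34 ± 0.09, adjusted p = 0.0036) and on adding butyrate to IL-1β (-0.33 ± 0.08, adjusted p = 0.0027), and rose with IL-1β (0.31 ± 0.08, adjusted p = 0.0055). Its call with butyrate was lost with upper-quartile scaling and on leaving out butyrate replicate 3 or control replicates 2 or 4 (adjusted p from 0.0129 to 0.0179), that on adding butyrate to IL-1β was lost with upper-quartile scaling and on leaving out IL-1β replicate 2 or IL-1β plus butyrate replicates 1 or 2 (adjusted p from 0.0102 to 0.0136), and that with IL-1β was lost with upper-quartile scaling and on leaving out IL-1β replicates 2 or 4 or control replicates 1 or 3 (adjusted p from 0.0177 to 0.0245). None of the alternatives changed its direction. The exons of *H1fx* share 213 bases with *Gm5577* on the other strand.

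Promoters, taken as the 250 bases before the RefSeq start (build GRCm38.p6), were at hand for 30 members. The string AAACACA, known as the H1 box, was in the window of *Hist1h1c*, *Hist1h1d* and *Hist1h1e* but not in that of *H1f0* or *H1fx*. It was also in 1 of 7 replacement windows (*H3f3a*), in 0 of 18 replication-dependent ones and in 6.25% of 32851 promoters on either strand. CCAAT was in 12 of 18 replication-dependent, 5 of 7 replacement and 3 of 5 linker promoters, against 33.8% of all. TATAAA was in 8, 1 and 2 of them (12.4% of all), and GGGCGG in 8, 5 and 2 (32.7% of all). None of these strings contains another. The promoter of *Hist1h1c* is shown, as the linker gene with the largest rise, with AAACACA and CCAAT (on either strand) in capitals.
Hist1h1c (chr13:23738557-23738806, + strand): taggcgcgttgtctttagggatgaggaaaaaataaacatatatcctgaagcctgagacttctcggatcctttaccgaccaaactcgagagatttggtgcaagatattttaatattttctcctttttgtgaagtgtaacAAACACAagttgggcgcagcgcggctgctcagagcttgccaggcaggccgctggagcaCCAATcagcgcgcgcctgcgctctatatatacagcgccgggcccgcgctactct

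Among the replacement histones, butyrate lowered H2A variants and left both H3.3 genes without a call. *H2afy2* (macroH2A2, a variant of silent chromatin) measured 36.7, 34.9, 34.8 and 34.1 CPM in controls and 28.02, 27.8, 27.9 and 26.2 CPM with butyrate. With IL-1β it measured 39.9, 39.8, 37.1 and 36.0 CPM and with both agents 29.3, 29.9, 27.5 and 28.1 CPM. The 8 libraries with butyrate lay under all 8 others, with changes of -0.35 ± 0.05, adjusted p = 5.5e-06 against control and -0.41 ± 0.05, adjusted p = 5.8e-07 against IL-1β. Its exons share 233 bases with *Aifm2* on the other strand. *H2afy*, which encodes macroH2A1 (19.1 CPM per kilobase in controls, against 16.1 for *H2afy2*), spanned 122 to 136 CPM in controls and 114 to 125 CPM with butyrate and was not called in any comparison (-0.11 ± 0.05, adjusted p = 0.11 with butyrate). The exons of *H2afy* share 501 bases with *Gm47071* on the other strand.

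*H2afz* (H2A.Z.1, found at promoters) measured 98.1, 102, 98.4 and 99.4 CPM in controls, 89.9, 79.0, 82.4 and 70.8 CPM with butyrate, 101, 111, 94.8 and 93.5 CPM with IL-1β and 79.6, 86.4, 81.0 and 80.4 CPM with both. Again no library with butyrate reached the lowest without it. The changes were -0.31 ± 0.06, adjusted p = 0.00023 with butyrate and -0.29 ± 0.06, adjusted p = 0.00045 on adding butyrate to IL-1β, and 0.01 ± 0.06, adjusted p = 0.95 with IL-1β alone. Its paralog *H2afv* (H2A.Z.2) spanned 19.8 to 24.1 CPM in controls and 15.96 to 19.4 CPM with butyrate, without overlap, and missed the threshold (-0.28 ± 0.09, adjusted p = 0.027).

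*H2afx*, whose product is phosphorylated at DNA breaks, was the replacement gene with the stem-loop and the one that fell with each agent. It measured 20.6, 22.8, 24.6 and 22.9 CPM in controls, 18.0, 19.3, 18.4 and 17.7 CPM with butyrate and 19.1, 20.3, 18.0 and 17.8 CPM with IL-1β. With both agents it measured 16.04, 14.6, 16.2 and 17.0 CPM, under every other library. The changes were -0.31 ± 0.06, adjusted p = 0.00059 with butyrate, -0.27 ± 0.06, adjusted p = 0.0018 with IL-1β and -0.51 ± 0.07, adjusted p = 3.7e-07 with both against control. Both agents against IL-1β alone gave -0.23 ± 0.07, adjusted p = 0.0084. The call with IL-1β was lost with the library size as the only scaling and on leaving out IL-1β replicates 3 or 4 or control replicate 3 (adjusted p from 0.0115 to 0.0184), and that on adding butyrate to IL-1β was lost with the library size as the only scaling, with upper-quartile scaling and on leaving out IL-1β replicates 1 or 2, IL-1β plus butyrate replicates 1, 2 or 3, butyrate replicate 3 or control replicates 2 or 4 (adjusted p from 0.0101 to 0.0371).

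*H2afj*, which encodes H2A.J, measured 30.5, 36.3, 29.2 and 27.97 CPM with IL-1β and 26.2, 25.0, 24.3 and 23.7 CPM with both agents and fell (-0.32 ± 0.07, adjusted p = 0.00053), while butyrate alone gave -0.23 ± 0.07, adjusted p = 0.0102. Of the H3.3 genes, *H3f3b* measured 162, 142, 135 and 135 CPM in controls, 160.3, 155, 144 and 142 CPM with butyrate, 129, 134, 131 and 123 CPM with IL-1β and 138, 147, 138 and 137 CPM with both. *H3f3a* spanned 24.0 to 27.2 CPM in controls and 26.7 to 31.6 CPM with IL-1β. Neither was called in the fit without a replicate block, and their log2 fold changes lay between -0.15 and 0.20 (with IL-1β, -0.15 ± 0.05, adjusted p = 0.039 for *H3f3b* and 0.20 ± 0.06, adjusted p = 0.016 for *H3f3a*). The antisense gene *H3f3aos*, which shares 160 exon bases with *H3f3a*, spanned 1.21 to 2.24 CPM in controls and 2.00 to 2.37 CPM with butyrate and was not called. *H3f3a* also shares 638 exon bases with *Gm17275* on the other strand. Without strand information, reads in the shared bases cannot be told apart, while 94.96% of the 50-base stretches of *H3f3aos* occur in no other gene. 

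**Figure D4:**
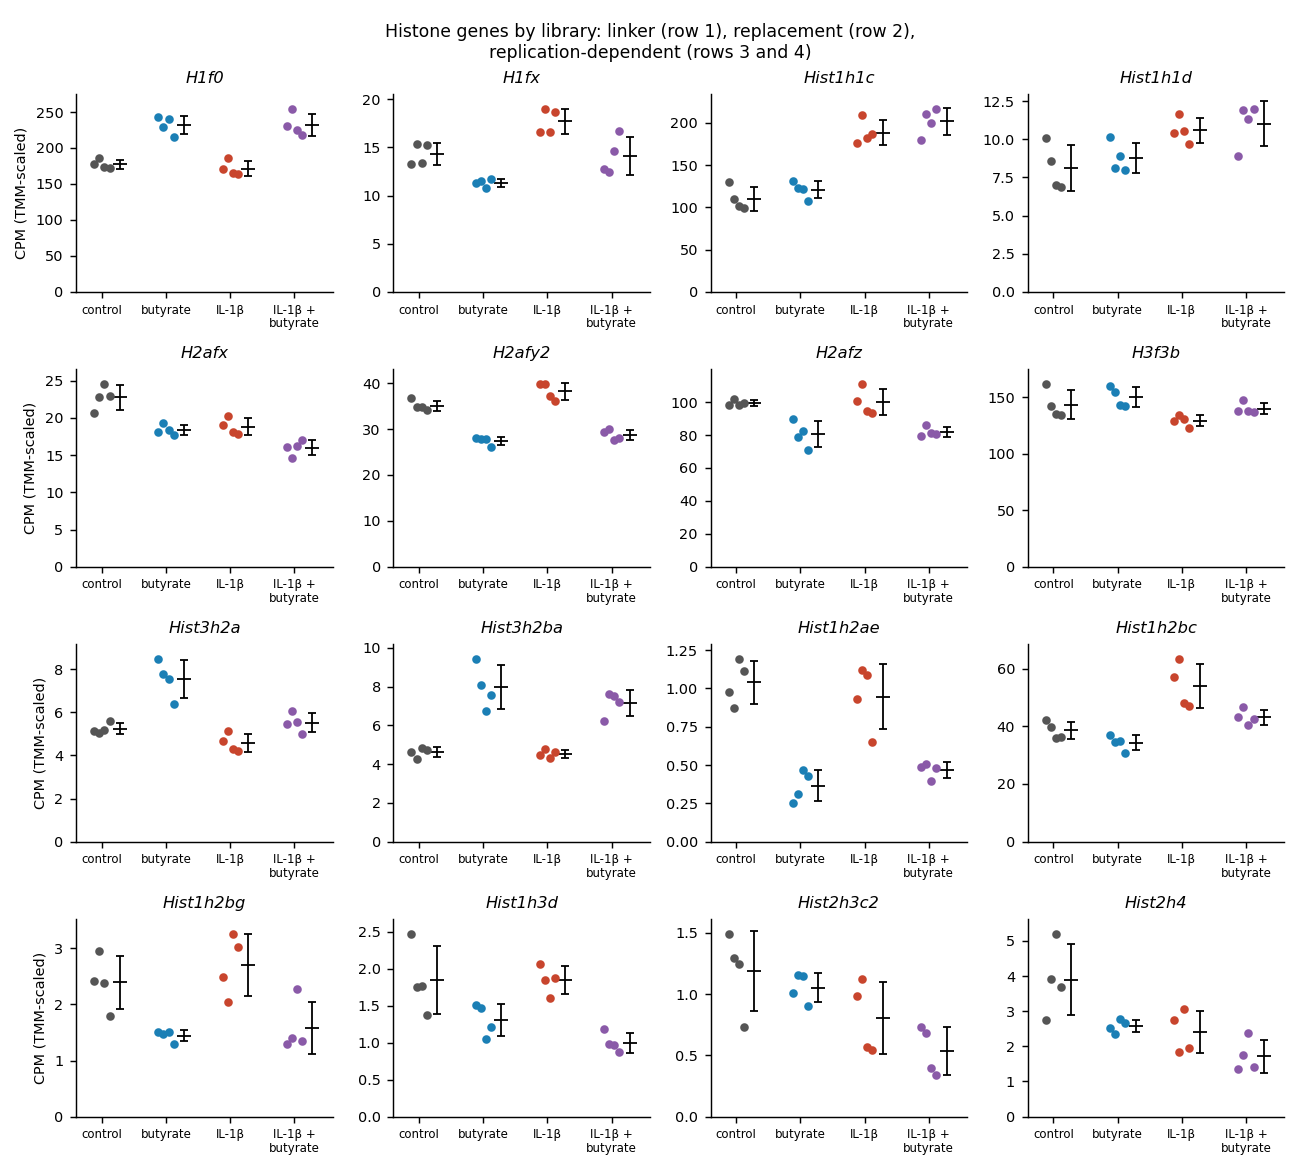
CPM (y axes, linear from 0) of 16 histone genes in each of the 16 libraries (points) by condition (x axes), with the mean and SD of 4 libraries (bars). *H1f0* is higher and *H2afy2* lower in all libraries with butyrate, and *Hist1h1c* is higher in all libraries with IL-1β.

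Among the replication-dependent genes, both protein-coding members of the small cluster on chromosome 11 rose with butyrate. *Hist3h2ba*, an H2B gene, measured 4.62, 4.25, 4.83 and 4.75 CPM in controls and 9.44, 8.08, 6.74 and 7.57 CPM with butyrate. With IL-1β it measured 4.45, 4.77, 4.30 and 4.62 CPM and with both agents 6.21, 7.64, 7.53 and 7.22 CPM. The 8 libraries with butyrate exceeded all 8 without it. The changes were 0.79 ± 0.11, adjusted p = 1.9e-06 with butyrate, the largest rise of any member there, 0.65 ± 0.11, adjusted p = 3.1e-05 on adding butyrate to IL-1β and -0.02 ± 0.11, adjusted p = 0.92 with IL-1β.

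*Hist3h2a*, the H2A gene with the highest mean CPM, starts 5773 bases downstream of *Hist3h2ba* on the same strand. It measured 5.13, 5.05, 5.16 and 5.61 CPM in controls and 8.49, 7.77, 7.52 and 6.37 CPM with butyrate, without overlap (0.52 ± 0.10, adjusted p = 0.00027). With IL-1β it measured 4.65, 5.11, 4.30 and 4.19 CPM and with both agents 5.44, 6.07, 5.56 and 5.01 CPM, ranges that overlapped (0.28 ± 0.11, adjusted p = 0.049). It shares 708 exon bases with *Trim17*, so its reads cannot be fully told from those of that gene. The pseudogene *Hist3h2bb-ps*, which lies between both on the other strand, was not tested and had a mean of 0.423 ± 0.179 CPM (SD, n = 4) in controls and 0.319 ± 0.092 CPM with butyrate, with overlap. Since the protein-coding pair rose while most replication-dependent members had negative values, their promoters are shown, with CCAAT on either strand in capitals.
Hist3h2ba (chr11:58948661-58948910, + strand): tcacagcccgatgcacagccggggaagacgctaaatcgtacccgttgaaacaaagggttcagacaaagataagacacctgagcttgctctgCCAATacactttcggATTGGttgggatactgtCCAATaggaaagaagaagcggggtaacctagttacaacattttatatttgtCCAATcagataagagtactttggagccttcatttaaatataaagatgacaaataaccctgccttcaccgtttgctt
Hist3h2a (chr11:58954435-58954684, + strand): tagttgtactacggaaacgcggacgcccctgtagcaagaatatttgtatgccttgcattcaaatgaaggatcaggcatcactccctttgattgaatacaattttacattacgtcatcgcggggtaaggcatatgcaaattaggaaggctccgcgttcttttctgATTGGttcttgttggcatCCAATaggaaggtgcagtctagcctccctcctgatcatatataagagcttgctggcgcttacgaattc
The window of *Hist3h2ba* held CCAAT 4 times and that of *Hist3h2a* 2 times.

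A divergent pair on chromosome 13 went the other way. *Hist1h2ae* (an H2A gene) and *Hist1h2bg* (an H2B gene) are transcribed from opposite strands, with 179 bases between their starts, and both fell with butyrate. *Hist1h2ae* measured 0.98, 0.876, 1.19 and 1.11 CPM in controls and 0.251, 0.311, 0.47 and 0.43 CPM with butyrate. With IL-1β it measured 0.931, 1.12, 1.09 and 0.65 CPM and with both agents 0.487, 0.509, 0.394 and 0.482 CPM. No library with butyrate reached the lowest without it, and the fall with butyrate was the largest of any member in the series (-1.49 ± 0.28, adjusted p = 0.00019). On adding butyrate to IL-1β it was -0.98 ± 0.27, adjusted p = 0.007, a call lost with DESeq2, with no filter on low counts and on leaving out IL-1β replicates 2 or 3 or IL-1β plus butyrate replicates 1, 2, 3 or 4 (adjusted p from 0.0118 to 0.0275).

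*Hist1h2bg* measured 2.43, 2.96, 2.39 and 1.80 CPM in controls and 1.51, 1.47, 1.52 and 1.29 CPM with butyrate, without overlap. With IL-1β it measured 2.48, 2.04, 3.27 and 3.03 CPM and with both agents 1.30, 1.40, 2.28 and 1.35 CPM, where 1 library lay inside the IL-1β range. The changes were -0.73 ± 0.21, adjusted p = 0.0077 and -0.78 ± 0.20, adjusted p = 0.0035. The first call was lost with upper-quartile scaling and on leaving out butyrate replicates 1, 2, 3 or 4 or control replicates 1, 2 or 3 (adjusted p from 0.0139 to 0.0435), and the second was lost on leaving out IL-1β replicates 3 or 4 or IL-1β plus butyrate replicates 1, 2 or 4 (adjusted p from 0.0123 to 0.0147). Of the 50-base stretches of *Hist1h2ae* and *Hist1h2bg*, 56.8% and 50.3% occur in no other gene, so part of their reads could come from, or be lost to, other histone genes. The 250 bases before *Hist1h2bg* hold the whole stretch between both starts and are shown with CCAAT (on either strand) in capitals.
Hist1h2bg (chr13:23571150-23571399, + strand): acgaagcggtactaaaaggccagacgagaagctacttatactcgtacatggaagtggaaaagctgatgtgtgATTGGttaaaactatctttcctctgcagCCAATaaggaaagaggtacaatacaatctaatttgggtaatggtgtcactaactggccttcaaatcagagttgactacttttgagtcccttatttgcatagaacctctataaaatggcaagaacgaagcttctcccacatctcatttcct

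The clustered linker gene *Hist1h1c*, with its stem-loop, is counted apart from the replication-dependent core genes. Among these core genes, *Hist1h2bc*, the H2B gene with the highest level, was the only member called higher with IL-1β. It measured 42.2, 39.8, 35.8 and 36.4 CPM in controls and 57.2, 63.4, 48.2 and 47.2 CPM with IL-1β, without overlap (0.48 ± 0.08, adjusted p = 0.00015). With both agents it measured 43.2, 46.7, 40.5 and 42.4 CPM and was lower than with IL-1β alone (-0.32 ± 0.08, adjusted p = 0.0057), and with butyrate alone it measured 36.9, 34.5, 35.0 and 30.8 CPM (-0.17 ± 0.09, adjusted p = 0.15). The fall on adding butyrate was lost as a call with upper-quartile scaling and on leaving out IL-1β replicates 1 or 2 or IL-1β plus butyrate replicates 1, 3 or 4 (adjusted p from 0.0102 to 0.0165). *Hist2h2be*, an H2B gene on chromosome 3, fell with IL-1β from 12.2, 13.4, 14.6 and 13.4 CPM to 10.0, 8.86, 11.7 and 10.7 CPM (-0.38 ± 0.09, adjusted p = 0.0013), a call lost with the library size as the only scaling (adjusted p = 0.0123). Both genes had annotated transcripts without the stem-loop.

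The largest falls with both agents against control were in low-count H4 and H3 genes and in *Hist1h2ae* (-1.14 ± 0.27, adjusted p = 0.001). *Hist2h4* measured 2.75, 3.92, 5.21 and 3.68 CPM in controls and 1.34, 1.74, 2.36 and 1.40 CPM with both (-1.18 ± 0.20, adjusted p = 2.3e-05). With IL-1β alone it measured 2.74, 1.85, 3.06 and 1.95 CPM and was lower than in controls too (-0.71 ± 0.19, adjusted p = 0.0061), a call lost with the library size as the only scaling and on leaving out IL-1β replicates 2 or 4 or control replicates 2, 3 or 4 (adjusted p from 0.0109 to 0.0465). *Hist2h3c2* spanned 0.728 to 1.49 CPM in controls and 0.337 to 0.731 CPM with both, ranges that overlapped at their ends, and fell (-1.12 ± 0.30, adjusted p = 0.0033), and 36.5% of its 50-base stretches occur in no other gene. That call was lost on leaving out IL-1β plus butyrate replicates 3 or 4 or control replicates 1 or 2 (adjusted p from 0.0108 to 0.0152).

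*Hist1h3d*, the H3 gene with the highest mean CPM, fell from 2.47, 1.75, 1.77 and 1.37 CPM to 1.18, 0.976, 0.963 and 0.867 CPM (-0.87 ± 0.21, adjusted p = 0.0011), a call lost on leaving out control replicate 1 (adjusted p = 0.0101). Against IL-1β alone, at 2.07, 1.85, 1.61 and 1.88 CPM, it fell as well (-0.88 ± 0.21, adjusted p = 0.0016). *Hist1h2bh*, an H2B gene, spanned 2.91 to 4.54 CPM in controls and 1.32 to 2.15 CPM with both and fell (-0.98 ± 0.17, adjusted p = 3e-05). *Hist1h4j*, an H4 gene, spanned 2.193 to 2.87 CPM in controls and 1.59 to 1.80 CPM with both and fell as well (-0.64 ± 0.16, adjusted p = 0.0018), and neither gene's ranges overlapped. *Hist1h4i*, the H4 gene with the highest mean CPM, spanned 3.50 to 4.68 CPM in controls and 4.24 to 4.67 CPM with both and was not called in any comparison. In all, 15 of the 34 protein-coding members tested were called in no comparison in the fit without a replicate block. Of these, 10 were replication-dependent, with control means from 0.411 CPM (*Hist1h2ad*) to 8.08 CPM (*Hist1h2be*). With the block, *Hist1h1e*, *H2afv*, *H3f3a* and *H3f3b* among the 15 were called. The share of all genes tested that was called in no comparison was not counted, so this number has no background.

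The effect of butyrate was measured in pairs of conditions that share no library, against control and on top of IL-1β. Libraries with the same replicate number may still come from the same experiment, which the labels do not state. All 6 members that butyrate lowered against control were also called lower when it was added to IL-1β (*H1fx*, *H2afx*, *H2afy2*, *H2afz*, *Hist1h2ae* and *Hist1h2bg*), and 2 of the 3 that it raised were raised again (*H1f0* and *Hist3h2ba*). Among all genes, 68.1% of those called lower and 67.2% of those called higher were called again in the same direction. The difference of both butyrate effects, tested as an interaction, was called in 0 members (edgeR), with 0 at an unadjusted p under 0.05 and 0 called by DESeq2. Over all genes tested, 0.043% of genes were called higher and 0.0538% lower in that test. The smallest adjusted p of a member was 0.79. For *H1f0* the difference was 0.05 ± 0.07 (95% interval -0.10 to 0.19), for *H2afz* 0.02 ± 0.08 (-0.15 to 0.18) and for *Hist3h2ba* -0.13 ± 0.15 (-0.43 to 0.16), while for *Hist1h2ae*, at low counts, 0.51 ± 0.40 left a wide interval (-0.28 to 1.30).

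Proliferation markers were called in 1 direction. Of 30 genes of DNA replication and mitosis, 29 were called lower with butyrate (all but *Tk1*), 10 with IL-1β, 25 on adding butyrate to IL-1β and 28 with both against control, and none was called higher. Over all genes tested, 11.4, 6.59, 11.1 and 14.8% were called lower in the same order, and 8.53, 11.2, 8.41 and 15.8% higher. The 30 genes had median log2 fold changes of -1.40, -0.38, -0.95 and -1.38. Their summed level was 293 to 482 CPM in controls, 154 to 177 with butyrate, 254 to 348 with IL-1β and 151 to 193 with both. *Mki67*, the nuclear antigen of cycling cells, fell most with butyrate (-3.26 ± 0.41, adjusted p = 5.6e-05), followed by *Ube2c* (-3.06 ± 0.36, adjusted p = 8.9e-06), an enzyme of mitotic exit. *Cdc6*, a replication licensing factor, had the largest fall with IL-1β (-0.91 ± 0.20, adjusted p = 0.0014). The part of proliferating cells in the falls of replication-dependent histone genes was not tested.

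Of 18 tested genes that make and process histone mRNA, butyrate lowered *Slbp* (-0.40 ± 0.08, adjusted p = 0.00033), *Cstf2* of the 3′ cleavage machinery (-0.42 ± 0.05, adjusted p = 2.1e-07) and *Eri1*, an exonuclease that trims histone mRNA (-0.27 ± 0.07, adjusted p = 0.0023), and raised none. This was 16.7% of the list, against 11.4% of all genes called lower, and with upper-quartile scaling 1 was higher and 2 lower. IL-1β lowered 1, *Ncbp1* of the cap-binding complex (-0.15 ± 0.04, adjusted p = 0.00963). On adding butyrate to IL-1β, *Mblac1*, an endonuclease of histone mRNA (-0.58 ± 0.15, adjusted p = 0.0029), and *Cstf2* (-0.36 ± 0.05, adjusted p = 1.8e-06) fell. With both agents against control, *Sympk*, a scaffold of the cleavage complex, rose (0.16 ± 0.04, adjusted p = 0.0041) and *Slbp*, *Cstf2* and *Ncbp1* fell. Called lower were 5.56% of the list with IL-1β, 11.1% on adding butyrate and 16.7% with both, against 6.59, 11.1 and 14.8% of all genes. With both, 5.56% of the list was called higher, against 15.8% of all genes. *Slbp* stood at 20.6 ± 1.15 CPM (SD, n = 4) in controls and 15.5 ± 1.75 CPM with butyrate.

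Histone chaperones carry new histones to DNA. Of 35 genes of histone chaperones and deposition, butyrate lowered 14 and raised 0, and IL-1β raised 2 and lowered 4. Butyrate added to IL-1β raised 2 and lowered 12, and both agents against control raised 2 and lowered 16. In this order, 40.0, 11.4, 34.3 and 45.7% of the list were lower, against 11.4, 6.59, 11.1 and 14.8% of all genes tested. Higher were 0, 5.71, 5.71 and 5.71% of the list, against 8.53, 11.2, 8.41 and 15.8% of all genes. The largest falls with butyrate were in *Cenpa* (-2.26 ± 0.35, adjusted p = 0.00017), *Asf1b* (-2.12 ± 0.21, adjusted p = 2.2e-08) and *Chaf1a*, a subunit of the assembly factor CAF-1 at replication forks (-2.00 ± 0.20, adjusted p = 1.6e-08). *Cenpa* encodes the H3 variant of centromeres, a histone and not a chaperone, and its symbol lay outside the rule for members. On adding butyrate to IL-1β, *Cenpa* (-2.05 ± 0.36, adjusted p = 0.00045), *Asf1b* (-1.75 ± 0.23, adjusted p = 1.8e-06) and *Mms22l* (-1.42 ± 0.18, adjusted p = 6.1e-07) fell most. *Hira*, which deposits H3.3 outside replication, was not called with butyrate (-0.05 ± 0.07, adjusted p = 0.64). *Rbbp7*, a histone-binding protein shared by several complexes, rose with IL-1β (0.24 ± 0.04, adjusted p = 0.00013) and on adding butyrate (0.23 ± 0.04, adjusted p = 0.0002), and *Tonsl* rose with IL-1β (0.26 ± 0.05, adjusted p = 0.00029).

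Markers of other cells moved with some of these changes. Of 10 macrophage genes, 9 were called higher with IL-1β and 1 lower (*C1qa*), with a median log2 fold change of 2.13, and 0 were at 0 counts in any condition. With both agents against control, 7 of the 10 were called higher and 1 lower (median 1.37), where 15.8% of all genes were higher and 14.8% lower. The summed level of the 10 genes was 131 to 144 CPM in controls, 189 to 237 with IL-1β, 87.1 to 107 with butyrate and 103 to 141 with both. Most of the control sum was *C1qa*, so the sum does not follow the other genes. *C1qa* had a mean of 111 CPM in controls, 79.7 with IL-1β, 77.6 with butyrate and 51.2 with both. Of 10 beta cell genes, 8 were lower and 1 higher with IL-1β, and their sum was 215343 to 238099 CPM in controls and 138353 to 179997 with IL-1β. The part of these cells in the rises of *Hist1h1c*, *Hist1h2bc* and *H1fx* with IL-1β was not tested. Of the other marker genes tested, 3 of 5 duct, 1 of 5 endothelial and 1 of 4 acinar genes were called higher with IL-1β, 2 of 5 alpha and 2 of 8 fibroblast and stellate genes lower, and none of the 3 delta, 2 PP and 3 T cell genes either way. With butyrate, 3 beta, 1 delta and 1 fibroblast and stellate genes were higher, 1 beta, 2 alpha and 1 macrophage genes lower, and none of the endothelial, acinar, duct, PP or T cell genes was called. Over all genes tested, 11.2% were called higher and 6.59% lower with IL-1β, and 8.53% higher and 11.4% lower with butyrate.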

How the data were processed

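RNA of 16 mouse islet libraries (4 conditions, 4 independent experiments each) was sequenced single-end from 250 ng RNA with the NEBNext Ultra II kit, which does not mark strand. The authors mapped the reads with STAR 2.5.3a to GRCm38 and deposited raw counts per gene, whole numbers without normalization, in 1 column per library. bcl2fastq 2.19.1, FastQC 0.11.7, MultiQC 1.7 and DESeq2 are also named in the submitters' processing notes. The annotation release, the strand setting, the treatment of reads with several matches and any poly(A) selection are not given in the sources used here. Symbols, exons and transcripts were taken from GENCODE M21, which held 52489 of the 52636 identifiers, and promoters from RefSeq (GRCm38.p6).

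In R 4.3.3, edgeR 4.0.16 filtered low counts (filterByExpr, 18587 genes left), scaled by TMM and fitted 1 robust quasi-likelihood model with 4 conditions to all libraries. Adjusted p-values (Benjamini-Hochberg) cover all genes tested, a call is an adjusted p under 0.01, fold changes are log2 ± SE, and the p-values measure the spread between pools. CPM are TMM-scaled. In simulated data the fit called 68.5% of 200 genes changed 2-fold, with 0 false calls. Smaller changes were not simulated, so a gene that was not called may still have changed. Classes follow symbols: Hist genes other than H1 form the replication-dependent core, H2af and H3f3 genes the replacement core, and H1 genes the linker class. The linker class thus mixes clustered genes with the stem-loop (*Hist1h1c*, *Hist1h1d* and *Hist1h1e*) with *H1f0* and *H1fx*, which had no match. The genes named were all tested replacement and linker members, per comparison up to 6 rises and 6 falls of called replication-dependent members with the highest member of each type, and up to 3 of each other list. *Hira*, *Ins2*, *Tk1*, *Hist3h2bb-ps* and the lowest and highest members of ranges were named after their values were seen. The members and lists were chosen with earlier results of these data known. The alternatives were other scalings, no filter, DESeq2 1.42.0, a replicate block, a threshold of 0.05 and leaving out each library.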

Additional observations from a re-analysis of the deposited data

Results flagged for a closer look

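Among 112 groups of 4 libraries examined (25 named genes and 3 class sums in 4 conditions), 6 held 1 library far from the others, where chance gives about 1 in 20. *H2afv* was at 15.96 CPM in butyrate replicate 4, against 19.3 to 19.4 in the other butyrate libraries. *H2afy2* was at 26.2 CPM in the same library, against 27.8 to 28.02. *H3f3b* was at 147 CPM in IL-1β plus butyrate replicate 2, against 137 to 138. *Hist1h2bg* was at 2.28 CPM in IL-1β plus butyrate replicate 3, against 1.30 to 1.40 in the others. *Hist1h4j* was at 2.193 CPM in control replicate 1, against 2.77 to 2.87. The linker sum was 434 CPM in IL-1β replicate 2, against 381 to 388. Without butyrate replicate 4, *H2afv* was further from the threshold (0.10 for its adjusted p with butyrate, edgeR).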

How the results depend on the processing

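Of 39 calls of members, 25 held under all 22 alternative fits, 38 with DESeq2 and 33 with upper-quartile scaling, and none changed sign. Low counts limit the replication-dependent genes, 13 of 21 of which had a control mean under 3 CPM. Counts of called genes moved by over 1.5 times as follows, and the cause was not tested. With butyrate against control, 3 replacement genes became 5 with no filter, with the replicate block and at a threshold of 0.05, and 2 linker genes became 1 with upper-quartile scaling. With IL-1β against control, 3 replication-dependent genes became 1 with the library size as the only scaling and 5 at a threshold of 0.05. There, 1 replacement gene became 3 with the library size alone, 2 with no filter or upper-quartile scaling, and 4 with the replicate block or at 0.05, and 2 linker genes became 1 with upper-quartile scaling. On adding butyrate to IL-1β, 2 linker genes became 1 with upper-quartile scaling. When single libraries were omitted, there were 3 to 5 replacement and 1 to 3 linker genes with butyrate, 0 to 2 replacement and 1 to 3 linker genes with IL-1β, and 2 to 5 replication-dependent and 1 to 2 linker genes on adding butyrate to IL-1β. With the replicate block, all 39 calls held and 11 more were made. Among them were *H3f3a* and *H3f3b* with IL-1β (adjusted p = 0.0042 and 0.0049, edgeR), *H2afv* with butyrate (0.0022) and *Hist1h1e* with both agents against control (0.0092). Called genes over the whole table rose from 3697 to 4879 with butyrate and from 3311 to 4537 with IL-1β. The labels do not say that a number marks one experiment. Deviations of same-numbered libraries correlated at 0.053 to 0.40, over 0.1 in 11 of 16 cases and best with their own number in 11 of 16. Sample numbers in the column names ran through all conditions of 1 replicate number before the next. The study also used paired t-tests in other assays. Both the values and the column order thus hint at pairing, though no label states it. The rule asked every pair to pass 0.1, so the fit without the block was kept.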
